A study of Mus musculus with 12 samples.

Results

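The circRNAs described here were the low-abundance nonexonic ones of the mouse basolateral amygdala, those in intronic, antisense, sense overlapping and intergenic positions. They were chosen by the class in the deposited circRNA table (any class other than exonic) and by their read count (fewer than 60 back-splice junction reads summed over 12 libraries). The rule took 3014 of 13957 circRNAs (21.6%), which held 14281 of 180744 junction reads (7.90%). Because junction reads chose the members, their low counts are a description and not a finding. In the table a sense overlapping circRNA was placed on the strand of a gene without being classed as exonic, an intronic one inside an intron, an antisense one opposite a gene, and an intergenic one outside genes. Classes are the labels given there, and some circles labelled intronic overlapped exons of GENCODE. By class, 2004 members were sense overlapping, 597 intronic, 286 antisense and 127 intergenic, with 10545, 2204, 922 and 610 junction reads in that order of classes.

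A circRNA forms when a downstream 5′ splice site is joined back to an upstream 3′ splice site, and a read across that junction is what the assay counts. Introns can also leave circular RNA behind, as lariats that escape debranching, and circles that keep an intron between their exons stay largely in the nucleus. The best known circle of the brain, Cdr1as, is annotated opposite the gene Cdr1 and carries many sites for miR-7. Splicing joins introns that begin with GT and end with AG, so a junction read on the correct strand has AG just before the circle and GT just after it.

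Libraries came from male C57BL/6J mice aged 10 weeks, 3 mice per group, with the basolateral amygdala cut from brain slices. F mice were fear conditioned with tone and foot shock and sampled after that session. E mice were conditioned and on a later day heard the tone without shock (extinction), and RE mice received a single retrieval tone before the same extinction. Control mice had the F session with the shock left out and were taken at the same time as F mice, so that for E and RE the day of sampling and the treatment cannot be told apart. All mice were otherwise untreated wild type animals, and the dissected tissue holds every cell type of the region, so fewer cells of a type and less RNA per cell cannot be told apart. Library numbers run 1 to 3 in F, E and control and 3 to 5 in RE, and reads are listed in that order.

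Depth was 7324 (E 1) to 23446 (control 1) junction reads per library. Libraries F 1, E 2, RE 4 and control 2, 1 from each group, stood apart from the other 8 in the lncRNA table. They held 74558 junction reads in all, and the other 8 held 106186. F 1, E 2 and RE 4 were the deepest libraries of their groups, and control 2 was less deep than control 1. On the first principal component of 18357 transcripts, which held 18.2% of the variance, these 4 scored 59.8 to 101.3 and the other 8 scored −47.8 to −32.2. Summed neuronal markers (4 genes) were 1602 to 1858 FPKM in these 4 libraries and 1844 to 2088 FPKM in the other 8, and choroid plexus markers (3 genes) 3.40 to 233 FPKM and 3.51 to 16.4 FPKM. Transcripts of the nucleus (6 genes) summed to 7716 to 9770 FPKM in the 4 and 7548 to 9726 FPKM in the other 8, and astrocyte markers (4 genes) to 670 to 737 FPKM and 610 to 689 FPKM. Markers of excitatory neurons of the basolateral amygdala (5 genes) were present in every library, at 791 to 1115 FPKM summed in the 4 and 612 to 994 FPKM in the other 8. Inhibitory neuron markers summed to 161 to 258 FPKM and 138 to 233 FPKM, and striatal markers (8 genes) to 266 to 1180 FPKM and 450 to 1354 FPKM. The ranges of these lists, and of the others among the 12 summed, overlapped. Of the single genes, Snap25 did not overlap, at 589 to 826 FPKM in the 4 and 837 to 1028 FPKM in the other 8. Neither did Hba-a1 (14.4 to 22.3 and 5.72 to 13.7 FPKM) or, barely, Rian (382.72 to 498.54 and 297.90 to 382.68 FPKM). The other single genes of the lists overlapped. Results that rest on the 4 libraries are given with and without them.

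The ends of the most-read members are shown because their splice signals separate the kinds of circle described next. Each sequence is written 5′ to 3′ on the strand given in the circRNA table, in build GRCm38 (mm10), with 12 bases outside and 24 bases inside the circle, and the capitals mark the 2 bases just outside it. The first pairs carry AG and GT, and the Tulp4 antisense circle carries AC and CT, the same signals read from the other strand. Its start covers the same bases as the end of a Tulp4 circle on the plus strand, which is classed as intronic although both its ends lie at annotated splice sites.
Ttc3 start (chr16:94403302-94403337, plus strand): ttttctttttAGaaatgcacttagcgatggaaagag
Ttc3 end (chr16:94468037-94468072, plus strand): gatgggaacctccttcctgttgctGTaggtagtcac
Ptp4a2 start (chr4:129838966-129839001, plus strand): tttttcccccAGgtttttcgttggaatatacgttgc
Ptp4a2 end (chr4:129847845-129847880, plus strand): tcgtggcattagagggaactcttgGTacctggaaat
Intron of Pcdh15 start (chr10:73282736-73282771, plus strand): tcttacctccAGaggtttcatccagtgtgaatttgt
Intron of Pcdh15 end (chr10:73283585-73283620, plus strand): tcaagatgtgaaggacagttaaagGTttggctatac
Intergenic circle of chr12 start (chr12:109718102-109718137, plus strand): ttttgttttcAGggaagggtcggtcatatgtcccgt
Intergenic circle of chr12 end (chr12:109718476-109718511, plus strand): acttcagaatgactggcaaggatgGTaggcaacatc
Tulp4 intronic circle end (chr17:6139133-6139168, plus strand): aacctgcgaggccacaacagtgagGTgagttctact
Tulp4 antisense circle start (chr17:6139133-6139168, minus strand): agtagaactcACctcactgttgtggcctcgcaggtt
Tulp4 antisense circle end (chr17:6137199-6137234, minus strand): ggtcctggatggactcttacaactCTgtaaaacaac

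The next pairs show circles that span an annotated intron from its first base to its last. The circle of Zfp68, a zinc finger gene, and that of Acvr2a, an activin receptor, begin with the GT of the intron (gtaagt and gtaaga) and are drawn as above, with capitals on the 2 bases just outside.
Zfp68 start (chr5:138617031-138617066, minus strand): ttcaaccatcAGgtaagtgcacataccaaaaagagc
Zfp68 end (chr5:138616554-138616589, minus strand): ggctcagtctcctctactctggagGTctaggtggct
Acvr2a start (chr2:48894769-48894804, plus strand): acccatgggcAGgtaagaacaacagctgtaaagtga
Acvr2a end (chr2:48896948-48896983, plus strand): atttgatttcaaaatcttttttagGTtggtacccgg

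A last pair shows a circle and the miRNA whose seed its sequence matches. The circle at chrX:61183701-61183862 lies inside Cdr1as, and its capitals mark GTCTTCC, the match to bases 2 to 8 of miR-7, whose mature sequence from RefSeq (GRCm38.p6, chr7:78888295-78888317) follows with this seed in capitals.
Circle inside Cdr1as (chrX:61183701-61183862, plus strand): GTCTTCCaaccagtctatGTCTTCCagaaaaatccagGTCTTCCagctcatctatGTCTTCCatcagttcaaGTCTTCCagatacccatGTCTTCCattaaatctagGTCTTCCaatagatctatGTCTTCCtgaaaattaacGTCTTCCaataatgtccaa
mmu-miR-7a-5p: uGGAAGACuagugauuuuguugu

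Members were sparse. Of the 3014, 1527 (50.7%) had 2 junction reads, the fewest of any circRNA in the table, and 585 had 3. In all, 2046 (67.9%) were seen in 1 library, against 41.9% of the 10458 exonic circRNAs with fewer than 60 reads, and 17 were seen in all 12. The share seen in 1 library was 83.6% of antisense, 78.4% of intronic, 66.1% of intergenic and 62.6% of sense overlapping members. A single library held 260 (E 1) to 800 (F 1) of them.

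At the limit of 60 reads the values ran without a gap. Just inside were sense overlapping circles of Ttc3, a ubiquitin ligase, and Ptp4a2, a tyrosine phosphatase, with 58 reads each, and of Rasgrf2, an exchange factor for Ras, with 57. Just outside were circles of Ntng2, a netrin-G synaptic protein, with 60 reads, and of N4bp2l2 with 61. Above the limit were 36 nonexonic circRNAs with 17691 reads, of which 35 were seen in all 12 libraries.

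The junction reads of members made up 8.09% ± 2.71 of each F library, 7.82% ± 2.06 of each E library, 7.29% ± 1.40 of each RE library and 7.32% ± 1.03 of each control library (mean ± SD, n = 3 each). The 4 groups overlapped. The shares were 11.2%, 6.71% and 6.34% in F, 6.19%, 10.1% and 7.15% in E, 6.34%, 8.90% and 6.63% in RE, and 6.82%, 8.50% and 6.63% in control libraries. The highest library of each group was F 1, E 2, RE 4 or control 2. Without these 4 the means were 6.52% in F, 6.67% in E, 6.49% in RE and 6.73% in control libraries (2 libraries each). Counting error was small beside this, since the 95% Wilson interval ran from 10.8 to 11.7% in F 1 and from 5.66 to 6.76% in E 1. Such intervals, and limits from a count of 0, cover counting error only, since reads without molecular identifiers are not independent molecules.

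Sense overlapping members held most of these reads, with 5.81% ± 1.00 in F, 5.65% ± 0.808 in E, 5.61% ± 0.748 in RE and 5.75% ± 0.579 in control libraries. Intronic members held 1.09% ± 0.434 in F, 1.31% ± 0.321 in E, 1.19% ± 0.351 in RE and 1.12% ± 0.337 in control libraries. Intergenic members held 0.387% ± 0.0813, 0.300% ± 0.0992, 0.284% ± 0.128 and 0.338% ± 0.0981 of F, E, RE and control libraries. In the sense overlapping and intronic classes the means differed by less than the SD of any group, and in the intergenic class the libraries of the groups overlapped. Antisense members held 0.807% ± 1.28 in F, 0.562% ± 0.885 in E, 0.205% ± 0.224 in RE and 0.112% ± 0.0336 in control libraries, and in F and E the SD was larger than the mean. Members were chosen on these reads, so no test was run on shares picked by the read limit. The tests of whole classes below take in members too.

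**Figure D1:**
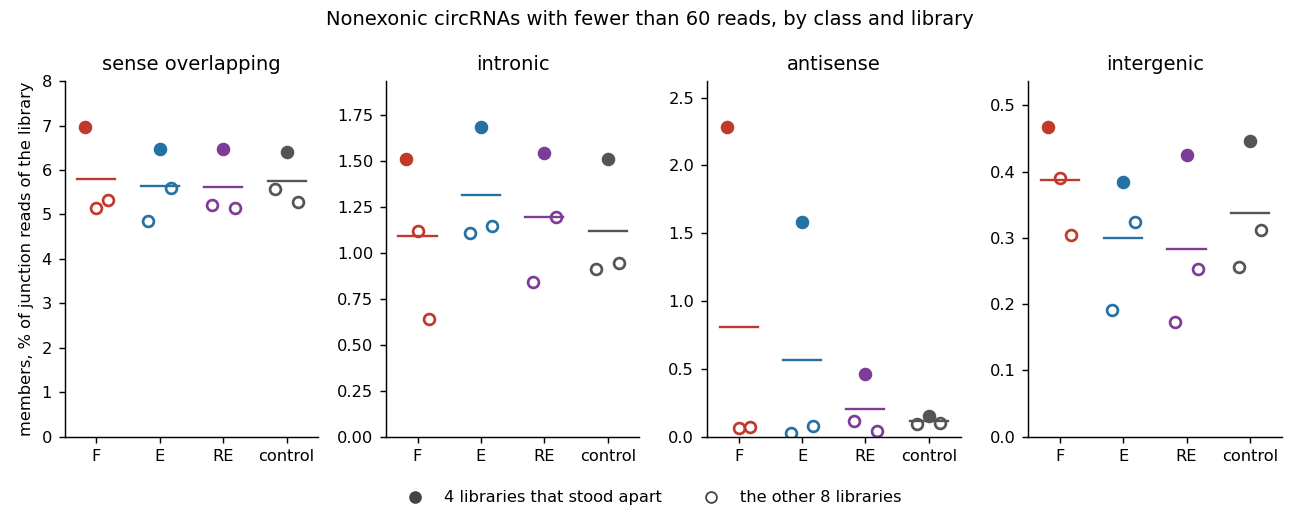
Share of each library's junction reads (%, linear axis from 0) in sense overlapping, intronic, antisense and intergenic members, 1 panel per class, with 1 point per library in groups F, E, RE and control, filled for the 4 libraries that stood apart, and a line at the group mean. F 1, E 2, RE 4 and control 2 lie at the top of their groups, most clearly in the antisense panel, where F 1 reached 2.28% and E 2 reached 1.58%.

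The 4 libraries that stood apart and the other 8 did not overlap in 3 of the 4 classes. Antisense members held 0.151 to 2.28% of reads in the 4 and 0.0273 to 0.114% in the other 8, a ratio of 14.6 over pooled reads. Intronic members held 1.51 to 1.68% in the 4 and 0.640 to 1.20% in the other 8 (ratio 1.59), and sense overlapping members 6.40 to 6.96% and 4.86 to 5.60% (ratio 1.24). Intergenic members held 0.385 to 0.467% in the 4 and 0.174 to 0.391% in the other 8 (ratio 1.58), with overlapping ranges. Exonic circRNAs with 60 reads or more held 33.3 to 34.5% in the 4 and 36.4 to 39.7% in the other 8. The 4 were picked on the lncRNA table and not by the study, so these ranges carry no test. The part of depth and of the markers above in the shares was not tested.

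The classes as wholes, with circRNAs of 60 reads or more included, were compared over the 4 groups by an exact permutation test (15400 partitions of the libraries, adjusted over 5 classes). Sense overlapping circRNAs held 8.45% ± 1.01 in F, 8.40% ± 0.470 in E, 8.35% ± 0.541 in RE and 8.29% ± 0.507 in control libraries (exact p = 0.991, adjusted p = 0.991, n = 3). Intronic circRNAs gave an exact adjusted p of 0.761, with 3.83% ± 0.618, 4.12% ± 0.210, 3.65% ± 0.356 and 3.64% ± 0.282 of F, E, RE and control reads. Intergenic circRNAs were all members, so their exact adjusted p of 0.761 rests on the reads the rule used and is given as a description. Antisense circRNAs held 5.43% ± 0.732 in F, 4.47% ± 1.28 in E, 6.45% ± 0.591 in RE and 3.58% ± 0.160 in control libraries (exact p = 0.0123, adjusted p = 0.0614, n = 3). Most antisense reads were those of Cdr1as (8211), which is not a member, and without circRNAs of 500 reads or more the exact adjusted p was 0.964. That value covers antisense members alone and is likewise a description. For the whole antisense class the exact adjusted p was 0.0279 without E 2 and 0.143 in the other 8 libraries alone. Between any pair of groups the smallest exact p that 3 against 3 libraries allow is 0.10.

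The splice signals at the ends were of 2 forms. Every junction of the table carried either AG before and GT after the circle or the same signals read from the opposite strand, with AC before and CT after. The reverse form was found in 636 members (21.1%, 1817 reads) and in none of the 10458 exonic circRNAs with fewer than 60 reads. It was found in 249 of 286 antisense, 172 of 597 intronic, 205 of 2004 sense overlapping and 10 of 127 intergenic members. Weighted by reads, the forward form made up 90.1% ± 8.24 of member junctions and 100% of those exonic junctions (mean ± SD, n = 12 libraries). Exonic circles are classed by their match to annotated exons on the same strand, which fixes their share, so the difference carries no test. The forward share of members was 71.8% in F 1, 74.8% in E 2, 87.0% in RE 4 and 91.1% in control 2, and 92.8 to 95.7% in the other 8 libraries.

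Most antisense members mirrored another circle. A member was called a mirror circle where its signals were reversed and a circle lay at the same coordinates on the other strand, or both its ends met exon ends there. Of the 275 mirror circles (846 reads), 235 were antisense, 30 sense overlapping and 10 intronic. F 1 held 471 of the reads (2.50% of its junction reads), E 2 272 (1.48%), RE 4 92 (0.459%) and control 2 11 (0.0638%). The other 8 libraries held 0 of 106186 junction reads, which allows a share of up to 0.00283%. Of the mirror circles, 236 were seen in 1 library and 39 in more than 1. Without them, members held 8.44 to 8.72% of reads in the 4 libraries and 6.19 to 7.15% in the other 8, so those ranges stayed apart.

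For 212 mirror circles the circle at the same coordinates was itself in the table. Their reads amounted to 10.6% of the reads of the opposite circles in F 1 (95% Wilson interval 9.69 to 11.7%), 5.73% in E 2 (5.04 to 6.52%), 1.89% in RE 4 (1.52 to 2.35%) and 0.190% in control 2 (0.0872 to 0.415%). The 4 intervals did not overlap. These shares cover only forward circles whose mirror circle was in the table, and leaving out the rest raises them. The most-read opposite circles most often had a mirror circle in the table. No circRNA with fewer than 2 reads was listed, so mirror circles of little-read circles can fall below that limit. The part of this limit in the rise that follows was not tested. Of forward circles with 2 to 9 reads, 41 of 10089 (0.406%) had a mirror circle, of those with 10 to 59 reads 85 of 2747 (3.09%), of those with 60 to 99 reads 21 of 265 (7.93%), of those with 100 to 299 reads 37 of 175 (21.1%), of those with 300 to 999 reads 23 of 40 (57.5%) and of those with 1000 or more 5 of 5.

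**Figure D2:**
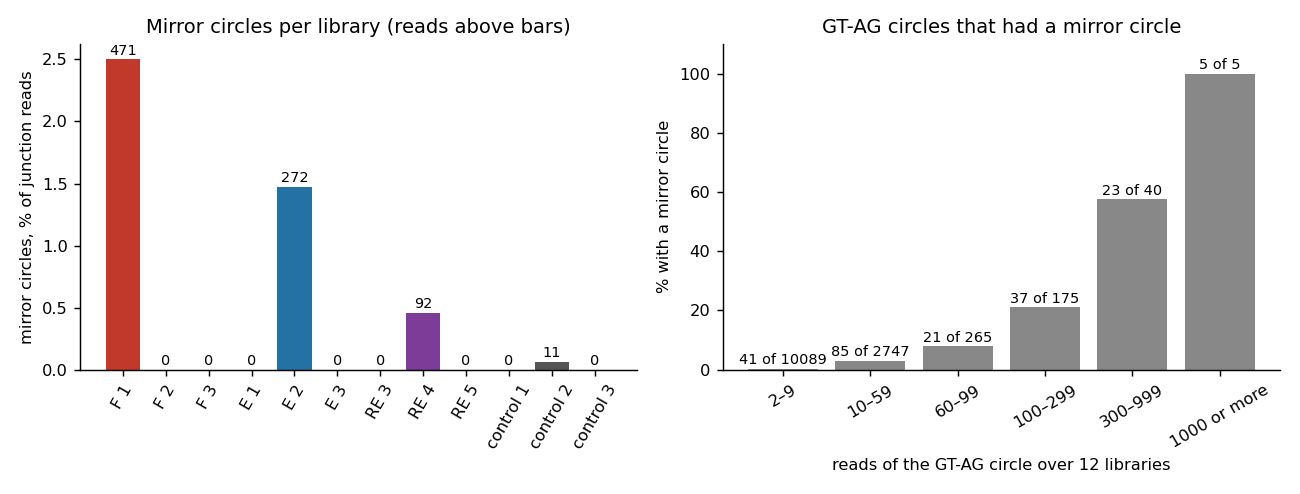
Mirror circles by library and by the abundance of the circle they mirror. One panel gives their share of each library's junction reads (%), 2.50% in F 1, 1.48% in E 2 and 0 in 8 libraries, and the other the share (%) of forward circles that had a mirror circle against their reads over 12 libraries, from 0.406% at 2 to 9 reads to all 5 circles of 1000 reads or more.

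The mirror circle of Tulp4, a member of the tubby-like family, at chr17:6137211-6139156 on the minus strand had 21, 0 and 0 reads in F libraries, 0, 9 and 0 in E libraries, and 0 in every RE and control library. The circle opposite had 4315 reads. In F 1 the mirror circle had 21 reads to 490 (4.29%, Wilson interval 2.82 to 6.46%), and in E 2 9 to 443 (2.03%, 1.07 to 3.82%). The mirror circle of Cdr1as, at chrX:61183248-61186174 on the minus strand and classed as sense overlapping with Cdr1, had 23 reads in F 1, 8 in E 2, 7 in RE 4, 1 in control 2 and 0 elsewhere. Cdr1as itself had 637, 789, 1265 and 561 reads in F 1, E 2, RE 4 and control 2. The mirror share of Cdr1as was thus 3.61% in F 1 and 1.01% in E 2. The pooled 10.6% and 5.73% of those libraries cover only circles with a mirror circle in the table, so they cannot serve as a reference for it. Strand of origin was not tested for any of these circles.

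The other 361 reversed members (971 reads) had no circle at the same coordinates on the opposite strand and did not meet exon ends there with both ends. They were short, with a median span on the genome of 482 bases, and 45 of them (12.5%) spanned 150 to 180 bases, close to the read length of 150, against 0.268% of exonic circRNAs with fewer than 60 reads. Their bases at the 2 ends were often alike, with at least 5 shared bases in 26.0% of them, against 21.4% of forward intronic members and 6.60% of those exonic circRNAs. They held 0.668 to 1.07% of reads in the 4 libraries and 0.273 to 0.484% in the other 8, again without overlap.

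Several of these circles lay in well known genes. A circle of 167 bases in Camk2a, the kinase of excitatory synapses, had 23 reads in 10 libraries, and 1 of 156 bases in Kmt2d, a histone methyltransferase, had 9 reads. A circle of 162 bases in mt-Nd2, a complex I subunit coded in the mitochondrial genome, had 8 reads, and 1 of 228 bases in Ubb, a polyubiquitin gene, had 23 shared bases. At least 10 shared bases were found at the ends of 49 members, 39 of them intronic, and of 1 exonic circRNA with fewer than 60 reads.

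The span of a member on the genome went with its class. Median spans were 13760 bases for sense overlapping, 12971 for antisense, 4695 for intergenic and 1252 for intronic members, against 12627 for exonic circRNAs with fewer than 60 reads. Spans in the table ran from 150 to 99947 bases. The median share of masked repeats was 22.0% of the span in members and 24.2% in those exonic circRNAs. Span is the distance between the ends and not the length of the spliced circle, for which the circRNA table gives only a prediction.

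**Figure D3:**
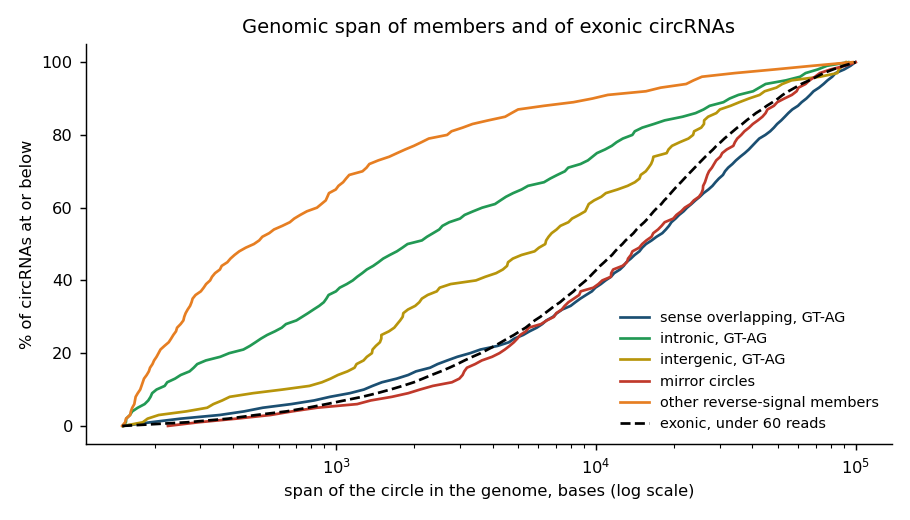
Cumulative share of circRNAs (%) against genomic span (bases, log axis) for forward (GT-AG) sense overlapping, intronic and intergenic members, mirror circles, other reversed members, and exonic circRNAs with fewer than 60 reads (dashed). Other reversed members lie furthest left, with a median of 482 bases, then intronic members at 1881, and mirror circles at 15049 lie among the long circles, beside sense overlapping members at 15571.

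Sense overlapping members typically used 1 annotated splice site and 1 other. Of 2004, 1315 (65.6%) had 1 end at an annotated exon end on their strand, 196 (9.78%) had both and 493 (24.6%) neither, whereas 99.7% of exonic circRNAs with fewer than 60 reads had both. This follows in part from the class itself, which is set by the match to exons. Where 1 end was annotated, it was the acceptor at the 5′ end of the circle in 846 and the donor at the 3′ end in 469. Of the 846, the 3′ end lay inside an exon in 509 (60.2%), inside an intron in 265 and outside the gene in 72. That exon was the last exon of a transcript in 486 of the 509 (95.5%), as for Ttc3, Ptp4a2 and Abhd17b. Of the 469, the 5′ end lay inside an intron in 295 (62.9%), inside an exon in 135 and outside in 39, and 31 of the 135 (23.0%) lay in a first exon.

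**Figure D4:**
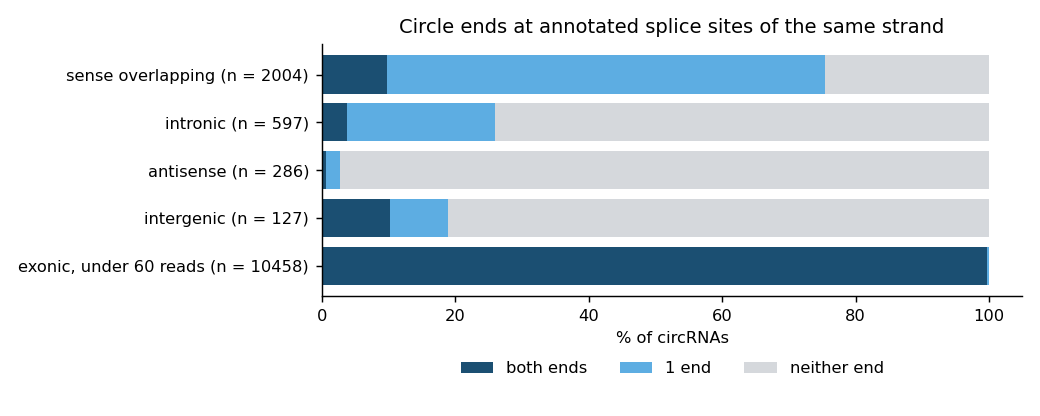
Share of circles (%) by class with both ends, 1 end or neither end at an annotated exon end on the same strand, for the 4 classes of members and for exonic circRNAs with fewer than 60 reads. In sense overlapping members 65.6% had 1 such end, in intronic members 442 of 597 and in antisense members 278 of 286 had neither, and 99.7% of the exonic circRNAs had both.

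The most-read sense overlapping members were spread over all groups. The Ttc3 circle (chr16:94403314-94468060, plus strand) had 8, 6 and 2 reads in F, 0, 5 and 3 in E, 9, 8 and 2 in RE, and 6, 5 and 4 in control libraries. The Ptp4a2 circle (chr4:129838978-129847868, plus strand) had 12, 2 and 1 reads in F, 2, 1 and 5 in E, 2, 12 and 4 in RE, and 6, 6 and 5 in control libraries, with its highest values in F 1 and RE 4. The Rasgrf2 circle (chr13:91968947-91988039, minus strand) had 8, 1 and 5 reads in F, 0, 1 and 7 in E, 4, 8 and 2 in RE, and 13, 5 and 3 in control libraries. For all 3 the groups overlapped, and E 1, the shallowest library, had at most 2 reads.

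Among intronic members, 442 of 597 had neither end at an annotated exon end, 132 had 1 and 23 had both, and 365 (61.1%) overlapped no annotated exon. The most-read lay in an intron of Pcdh15, a protocadherin (chr10:73282748-73283608, plus strand, 861 bases), with 1, 3 and 2 reads in F, 2, 2 and 2 in E, 4, 8 and 6 in RE, and 7, 3 and 1 in control libraries. The circle of Erc2, a scaffold of the presynaptic active zone (chr14:28317249-28384043, plus strand), had 1, 4 and 0 reads in F, 3, 3 and 1 in E, 4, 3 and 3 in RE, and 6, 6 and 3 in control libraries. It ran from an annotated acceptor to a point inside an intron, as did the circle of Zfp644, a zinc finger gene (chr5:106632925-106638635, minus strand), which had 2, 8 and 3 reads in F, 1, 4 and 1 in E, 1, 6 and 1 in RE, and 6, 2 and 2 in control libraries. All 3 were seen in every group. For the Pcdh15 circle every RE library had more reads than any F or E library, but per 10000 junction reads of the library RE had 2.67, 3.99 and 4.10, F 0.531, 2.79 and 2.10, and E 2.73, 1.09 and 1.66, which overlapped. The groups of the Erc2 and Zfp644 circles overlapped.

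Few of the listed members were whole introns. A circle from the first to the last base of an annotated intron, within 2 bases, was found 23 times (67 reads, 20 intronic and 3 sense overlapping), and 18 of these were seen in 1 library. All 23 had AG just before and GT just after in the exons on either side. Every listed junction carried these signals or their reverse, so this is no trait of introns. Introns without them at their edges would be missing, so the count does not give how often introns form circles. The Zfp68 intron of 489 bases (chr5:138616566-138617054, minus strand) had 1, 0 and 0 reads in F, 1, 2 and 0 in E, 2, 1 and 0 in RE, and 3, 0 and 1 in control libraries, and was the only one with more than 5. The Acvr2a intron of 2191 bases had 5 reads, 2 in E 1 and 3 in control 2. The intron of Usp7, a deubiquitinase (434 bases), had 4 reads, and that of Ptprs, a receptor phosphatase (283 bases), had 3.

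Of 37 antisense members with forward signals, the most-read lay in the Cdr1as locus. That circle (chrX:61181550-61186174, plus strand, 4625 bases) shares its 3′ end with Cdr1as and reaches further upstream, and it had 1, 1 and 1 reads in F, 0, 2 and 1 in E, 6, 7 and 2 in RE, and 5, 1 and 4 in control libraries. Per 10000 junction reads every RE library (4.01, 3.50 and 1.37) lay above every F and E library (at most 1.09), and RE overlapped control libraries (2.13, 0.580 and 2.96). The edgeR unadjusted p was 0.0766 for RE against F (adjusted p = 0.994) and 0.0673 for RE against E (adjusted p = 0.963). The circle of 162 bases inside Cdr1as had 2, 0 and 0 reads in F, 0, 2 and 1 in E, 3, 1 and 0 in RE, and 0, 0 and 1 in control libraries. It holds 9 matches to the miR-7 seed, where the span of Cdr1as (2927 bases) holds 123, and it is named here because of these matches, after its values were seen. A seed match is a run of letters and not a measured site. The circle opposite the locus Gm11892 (chr4:24238840-24240623, minus strand) had 0, 1 and 3 reads in F, 1, 5 and 2 in E, 4, 0 and 1 in RE, and 4, 0 and 4 in control libraries, so its groups overlapped.

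Intergenic members had 103 of 127 with neither end annotated, and 81 of 127 lay on no gene that GENCODE annotates on their strand. The most-read of them (chr12:109718114-109718499, plus strand, 386 bases) had 7, 3 and 4 reads in F, 0, 0 and 2 in E, 3, 2 and 4 in RE, and 6, 8 and 7 in control libraries. E 1 and E 2 were the only libraries without a read. The next (chr12:5451681-5452852, plus strand) had 1, 1 and 2 reads in F, 2, 5 and 3 in E, 1, 2 and 3 in RE, and 3, 5 and 2 in control libraries. The circle at chr12:6036104-6046744 on the plus strand had 8, 0 and 0 reads in F, 2, 2 and 3 in E, 0, 2 and 1 in RE, and 2, 2 and 4 in control libraries, with its highest value in F 1.

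The hosts were mostly protein-coding genes expressed in this tissue. Members carried 1803 host names, 1306 of them with 1 member, 57 with 5 or more and 1058 with an exonic circle as well. The median level of the 1600 hosts with an mRNA value was 19.5 FPKM, against 16.0 FPKM for hosts of exonic circRNAs with fewer than 60 reads and 9.37 FPKM for the 13517 mRNAs with a mean of at least 0.5 FPKM. DOKist4, a transcript of chromosome 7, had the most members, 16 with 124 reads, of which RE 4 held 29. Malat1, an abundant nuclear noncoding RNA, followed with 14 members and 30 reads, and Strbp, an RNA-binding protein gene, with 13 members and 75 reads, 4 of them mirror circles. Tulp4 had 11 members and 178 reads, 43 of them in F 1, and Lrrc7, a postsynaptic scaffold, had 10 members and 72 reads, with 1 annotated end in 9 of the 10. A source in circBase or the literature was given in the table for 752 of 2004 sense overlapping, 125 of 597 intronic, 42 of 127 intergenic and 8 of 286 antisense members, and for no member with reversed signals.

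To ask whether single members changed with training, all 3241 circRNAs with at least 10 reads were tested together with edgeR, and 290 of the 3014 members passed this minimum (239 sense overlapping, 29 intronic, 12 intergenic and 10 antisense). At an adjusted p under 0.05 edgeR called 0 members in each of the 6 contrasts (background 0% of 3241 in each), and DESeq2 called 0 as well. The smallest adjusted p of a member in edgeR was 0.217, for the Tulp4 mirror circle in F against control, and its reads in F all came from F 1. At an unadjusted p under 0.05, edgeR gave 17 members (5.86%) for F against control, 17 (5.86%) for E against control, 8 (2.76%) for RE against control, 14 (4.83%) for RE against E, 18 (6.21%) for E against F and 16 (5.52%) for RE against F. The background, the share of all 3241 circRNAs at that p, was 4.2%, 4.75%, 3.73%, 5.09%, 4.75% and 4.91% in the same order of contrasts. DESeq2 gave 3, 3, 0, 1, 5 and 5 members, at most 1.72%, with backgrounds of 1.36%, 1.48%, 1.3%, 1.6%, 1.85% and 1.88%.

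At the study's thresholds, which ask for an unadjusted p below 0.05 and a change of 1 or more on the log2 scale, counts of members are read against the background, the share of all 3241 circRNAs past the same thresholds. In F against control 11 members (3.79%) were higher, where the background was 1.36%, and 6 (2.07%) were lower, where it was 2.75%. Of the 11, 4 were mirror circles. In the other 8 libraries alone (278 members tested) 1 was higher and 8 were lower, with backgrounds of 0.846% and 2.76%. Without F 1 the 17 of both directions became 7 (2.41%, background 2.65%), of which 2 were higher and 5 lower. In E against control 9 members (3.10%) were higher and 8 (2.76%) lower, with backgrounds of 1.23% and 3.46%. Of the 9, 4 were mirror circles. In the other 8 libraries alone the counts were 3 and 7, with backgrounds of 0.564% and 4.10%. The total of 17 was 6 without E 2 (2.08%, background 2.87%) and 9 without control 1 (3.10%, background 3.92%). In RE against control 5 members (1.72%) were higher and 3 (1.03%) lower, with backgrounds of 1.14% and 2.41%. In the other 8 libraries alone the counts were 3 and 3, with backgrounds of 1.03% and 2.07%. The total of 8 was 4 without control 3 (1.38%, background 3.30%) and 5 without control 1 (1.72%, background 3.86%). It was 13 without RE 5 (4.48%, background 3.70%). The 3 contrasts share the control libraries.

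In RE against E 8 members (2.76%) were higher and 6 (2.07%) lower, with backgrounds of 3.39% and 1.51%. Of the 6, 2 were mirror circles. In the other 8 libraries alone 4 were higher and 2 lower, with backgrounds of 2.60% and 0.846%. Without E 2 the total of 14 became 4 (1.38%, background 3.24%). In E against F 7 members (2.41%) were higher and 11 (3.79%) lower, with backgrounds of 2.04% and 2.72%. In the other 8 libraries alone the counts were 6 and 4, with backgrounds of 1.35% and 1.85%. The total of 18 was 10 without E 2 (3.46%, background 3.24%) and 11 without E 1 (3.79%, background 3.61%). In RE against F 8 members (2.76%) were higher and 8 (2.76%) lower, with backgrounds of 2.81% and 2.01%. In the other 8 libraries alone the counts were 4 and 6, with backgrounds of 2.26% and 1.25%. The total of 16 was 6 without F 1 (2.07%, background 2.59%).

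The members below had the smallest unadjusted p in each contrast among those past the study's thresholds whose groups did not overlap per junction read of the library, and their edgeR adjusted p was 0.918 or higher. Ratios are of reads pooled over each group's libraries relative to all their junction reads, with exact counting intervals that leave out the spread between libraries. Where a group had 0 reads, the ratio is a bound set at 3 reads over that group. This bound takes the few reads of the other group as exact, so it is not the lower end of such an interval, which would lie lower.

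In F against control, a circle of the noncoding locus XLOC_006285 (chr13:83872656-83884235, plus strand) had 8, 5 and 4 reads in F and 2, 1 and 1 in control libraries, a ratio of 5.89 (interval 1.92 to 24.0, edgeR unadjusted p = 0.0172). E and RE libraries had 1, 4 and 1 and 3, 1 and 0. A circle of Psd3, an exchange factor for Arf6 (chr8:67904117-67908886, minus strand), had 0 reads in all 3 F libraries and 3, 5 and 1 in control libraries, at least 2.17-fold lower (edgeR unadjusted p = 0.0211). E libraries had 0, 2 and 0 and RE libraries 0, 2 and 2.

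In E against control, the intergenic chr12 circle of 386 bases had 0, 0 and 2 reads in E and 6, 8 and 7 in control libraries, a ratio of 0.137 (interval 0.0155 to 0.559, edgeR log2 fold change −2.82 ± 1.02 SE, unadjusted p = 0.00569). The same circle had 7, 3 and 4 reads in F and 3, 2 and 4 in RE libraries. A circle of Nxpe4 (chr9:48230361-48233282, plus strand) had 4, 4 and 3 reads in E and 0, 1 and 0 in control libraries, a ratio of 15.8 (interval 2.29 to 679, edgeR unadjusted p = 0.0138). F libraries had 4, 1 and 0 and RE libraries 1, 0 and 1.

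In RE against control, a circle of Foxp1, a forkhead transcription factor (chr6:99428789-99435345, minus strand), had 0 reads in all 3 RE libraries and 2, 4 and 1 in control libraries, at least 2.14-fold lower (edgeR unadjusted p = 0.0229). F libraries had 1, 1 and 3 and E libraries 1, 0 and 2. A circle of Nin, the centrosomal protein ninein (chr12:70020834-70025481, minus strand), had 2, 3 and 1 reads in RE and 0 in all 3 control libraries, at least 2.18-fold higher (edgeR unadjusted p = 0.0352). F libraries had 2, 0 and 0 and E libraries 0, 0 and 2. Values this low lie within a few reads of the bound.

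In RE against E, the Tulp4 circle classed as intronic (chr17:6121828-6139156, plus strand) had 2, 3 and 2 reads in RE and 0 in all 3 E libraries, at least 1.78-fold higher (edgeR unadjusted p = 0.0287). Both its ends lay at annotated splice sites of its strand and it overlapped 9 annotated exons, so it did not lie inside an intron in GENCODE. F libraries had 2, 3 and 1 and control libraries 2, 0 and 0. A circle of Abhd17b, a depalmitoylating enzyme (chr19:21678353-21684305, plus strand), had 2, 1 and 0 reads in RE and 2, 11 and 2 in E libraries, a ratio of 0.152 (interval 0.0283 to 0.538, edgeR unadjusted p = 0.0329). Its value in E 2 was well above that of every other library.

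In E against F, a circle of Sergef (chr7:46567105-46635556, minus strand) had 0 reads in all 3 E libraries and 6, 2 and 2 in F libraries, at least 3.22-fold lower (edgeR unadjusted p = 0.00728). RE and control libraries had 0, 0 and 4 and 2, 1 and 1. A circle of DOKist4 (chr7:61072717-61091108, minus strand) had 3, 2 and 3 reads in E and 0 in all 3 F libraries, at least 2.76-fold higher (edgeR unadjusted p = 0.0121). RE and control libraries had 0, 2 and 1 and 1, 1 and 3.

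In RE against F, a circle of the pseudogene Gm11855 (chr4:15819112-15821370, minus strand) had 6, 7 and 9 reads in RE and 0, 0 and 1 in F libraries, a ratio of 17.3 (interval 2.80 to 716, edgeR unadjusted p = 0.0014). E libraries had 3, 0 and 0 and control libraries 1, 6 and 2. Per 10000 junction reads RE had 4.01, 3.50 and 6.15, E 1 lay within that range at 4.10, and control 2 lay just under it at 3.48. An intergenic circle (chrX:5966507-5973049, minus strand) had 0 reads in all 3 RE libraries and 2, 3 and 3 in F libraries, at least 3.38-fold lower (edgeR unadjusted p = 0.0101). E and control libraries had 0, 1 and 1 and 3, 0 and 0.

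**Figure D5:**
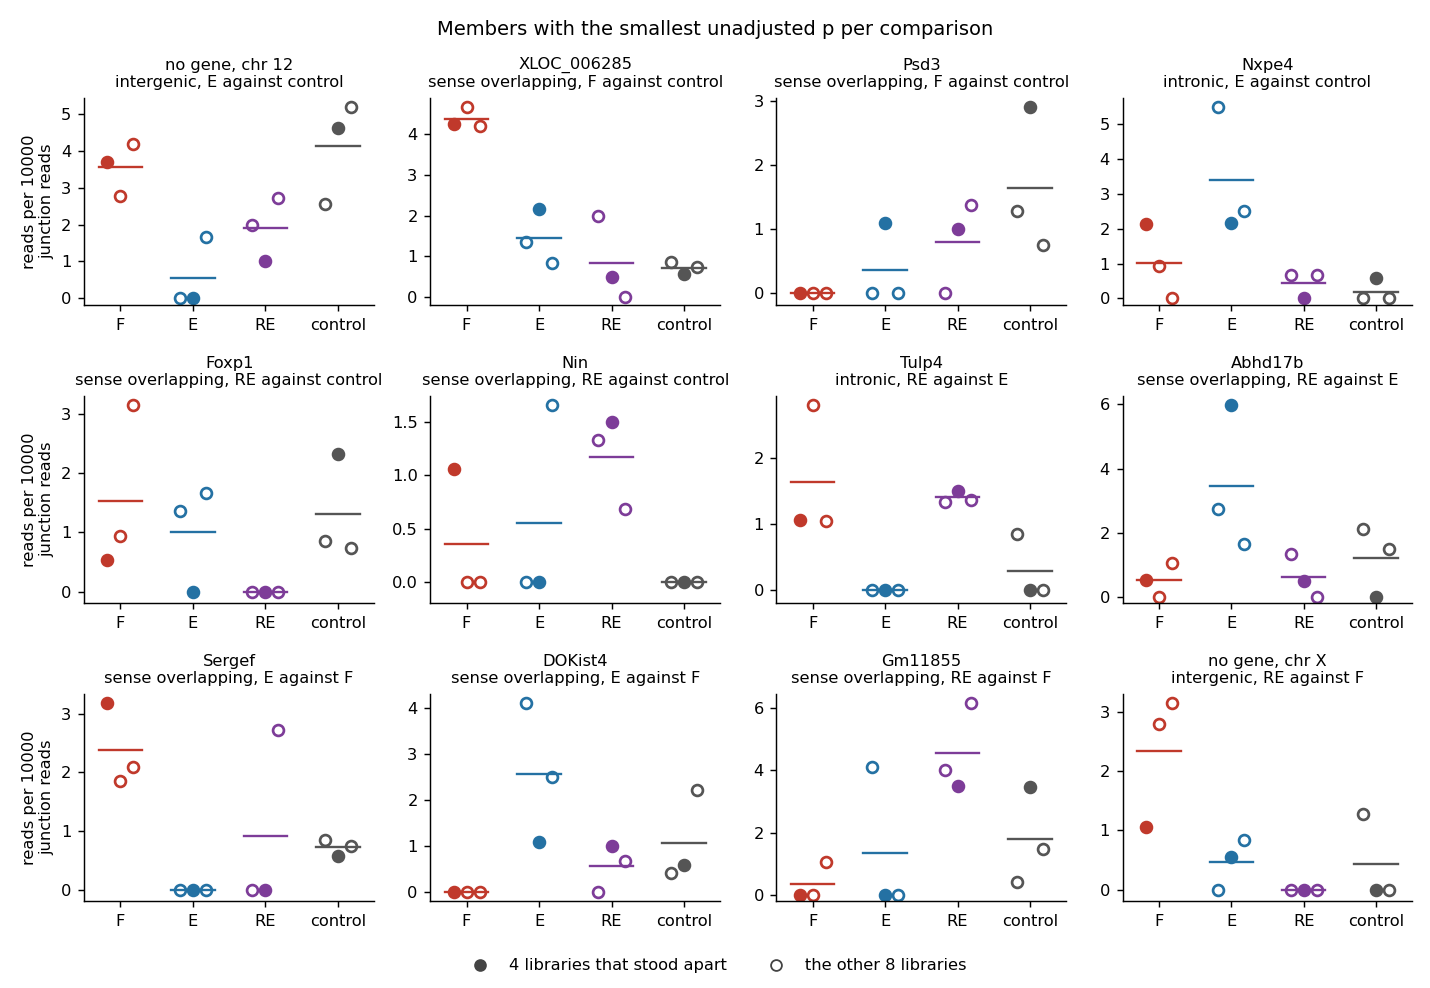
Junction reads per 10000 junction reads of the library (linear axis) for the 12 members with the smallest unadjusted p in the 6 contrasts, 1 panel per member and 1 point per library in groups F, E, RE and control, filled for the 4 libraries that stood apart, with a line at the group mean. Groups of the contrast that chose each member do not overlap on this scale by that choice, as for Gm11855 with 6, 7 and 9 reads in RE and 0, 0 and 1 in F libraries.

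Genes that make, export or remove circles were followed in the mRNA table, as a list of 55 genes of core splicing, circle formation, lariat turnover, nuclear export and decay. All 55 were among 13517 mRNAs tested with limma on log2(FPKM + 0.1), and 0 passed an adjusted p under 0.05 in any contrast. The background was 0% of mRNAs for F against control, 0% for E against control, 0.0666% for RE against control, 0.614% for RE against E, 0.0814% for E against F and 0% for RE against F. At an unadjusted p under 0.05 limma gave 2, 2, 1, 3, 3 and 3 of the 55 genes in that order of contrasts, where the background was 7.08%, 5.13%, 9.65%, 10.4%, 10.8% and 7.03% of mRNAs. The median log2 difference of the list was 0.02, 0.05, −0.01, −0.06, 0.03 and −0.06, against 0.01, 0.03, −0.02, −0.05, 0.02 and −0.03 over all mRNAs.

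Adarb1, an enzyme that edits adenosines in double-stranded RNA, had 47.4, 55.3 and 48.8 FPKM in E and 32.7, 39.3 and 41.8 FPKM in F libraries, without overlap. The log2 difference was 0.42 ± 0.10 SE (limma unadjusted p = 0.00183, adjusted p = 0.140). Qk, which codes for the quaking proteins that favour circle formation, gave 0.32 ± 0.11 SE in the same contrast (limma adjusted p = 0.310), with 65.7 ± 5.02 FPKM in E and 52.6 ± 4.48 FPKM in F libraries (SD, n = 3 each).

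Khdrbs1, the RNA-binding protein Sam68, had 27.1, 28.3 and 27.1 FPKM in RE and 35.0, 48.0 and 34.6 FPKM in E libraries, without overlap, and a log2 difference of −0.49 ± 0.13 SE (limma adjusted p = 0.153). With the 4 libraries that stood apart as a term, it was the only gene of the list to pass (adjusted p = 0.0263). Adarb1 gave −0.36 ± 0.10 SE in that contrast (limma adjusted p = 0.197). U2af1, which reads the 3′ splice site, had 15.9, 17.8 and 17.3 FPKM in RE and 22.1, 23.6 and 21.1 FPKM in control libraries, without overlap, with −0.39 ± 0.13 SE (limma adjusted p = 0.287).

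Hrsp12, whose product links marked RNAs to an endonuclease, had 12.3, 13.9 and 13.4 FPKM in F and 16.0, 17.9 and 16.6 FPKM in control libraries, and a log2 difference of −0.35 ± 0.12 SE (limma adjusted p = 0.508). In RE against F it gave 0.37 ± 0.12 SE (limma adjusted p = 0.651), as Khdrbs1 gave −0.39 ± 0.13 SE (limma adjusted p = 0.651). Adar, an editing enzyme that limits circle formation, gave 0.22 ± 0.10 SE in F against control (limma adjusted p = 0.680), and Aqr, an intron-binding helicase, 0.31 ± 0.14 SE in E against control (limma adjusted p = 0.960).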

How the data were processed

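RNA of 12 libraries from the basolateral amygdala was depleted of ribosomal RNA and sequenced as directional paired ends of 150 bases. Per the paper's methods, the authors trimmed reads with cutadapt, found circRNAs with STAR and DCC, annotated them with circBase and Circ2Traits, and obtained FPKM with HISAT2 and cuffdiff. The deposited circRNA table holds a raw count of junction reads per library, and the authors' deposited mRNA and lncRNA tables hold FPKM. The submitters' notes name CASAVA 1.8, BWA and human hg19, but the coordinates were those of mouse GRCm38 (mm10), where splice signals and exon ends were read from the genome and GENCODE. Per-sample columns of log CPM and scaled counts (36) were not used.

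Groups came from the sample titles. Members and gene lists were chosen with earlier results of these data known. Junction reads of 3241 circRNAs with at least 10 reads were tested with edgeR 4.0.16 (quasi-likelihood, TMM, all 12 libraries in 1 fit, 6 contrasts) in R 4.3.3, mRNAs with a mean of at least 0.5 FPKM with limma 3.58.1 on log2(FPKM + 0.1), and shares with exact permutation tests over libraries. Tests were two-sided, with Benjamini-Hochberg adjustment over all features of a contrast. Python 3.11.15 with pandas 2.3.3, scipy 1.17.1 and matplotlib 3.10.9 did the rest. Both fits were also run on simulated data. The outcome of those runs is not given here, so they cannot show whether a change in circRNAs as little read as members would be found. Some items are not reported here. P-values set differences between groups against the spread between these libraries. Named members were the 3 with the most reads per class, those with an adjusted p under 0.05 (none), and per contrast the 2 with the smallest unadjusted p among those past the study's thresholds with a group mean of at least 2 reads and no overlap per junction read of the library. To these were added the 5 hosts with the most members and the 3 circRNAs on either side of the limit, and, after the values were seen, the Cdr1as, Zfp68 and Acvr2a circles and other short or whole-intron circles. Pathway genes named were the 2 with the smallest p per contrast. Alternatives were other factors, filters, library sizes, DESeq2 1.42.0, fits of 2 groups, a replicate block, and each library left out. Added after seeing the data were the other 8 libraries alone, the 4 libraries as a term, and shares without mirror circles.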

Additional observations from a re-analysis of the deposited data

How the results depend on the processing

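EdgeR called 0 members at an adjusted p under 0.05 under every one of them, as did DESeq2. Counts past the study's thresholds depended on the setting, and so did their balance of higher and lower members. For F against control it was 11 and 6 (backgrounds 1.36% and 2.75%). In the other 8 libraries alone it was 1 and 8 of 278 members tested (backgrounds 0.846% and 2.76%). For E against F it was 7 and 11 (backgrounds 2.04% and 2.72%), and 6 and 4 in the other 8 alone (1.35% and 1.85%). With at least 30 reads (56 members tested) the counts were 5 for F against control, 3 for E against control and 0 for RE against control. They were 3 for RE against E, 3 for E against F and 4 for RE against F. These were 0 to 8.93% of those members, where 3.36 to 4.54% of all circRNAs tested passed. DESeq2 gave 3, 3, 0, 1, 5 and 5 in that order, up to 1.72% where 1.17 to 1.85% of all passed. In the other 8 libraries alone they were 9 for F against control, 10 for E against control, 6 for RE against E, 10 for E against F and 10 for RE against F, 2.16 to 3.60% of members over the 6 contrasts where 3.10 to 4.67% of all passed. Leaving out 1 library gave 7 (without F 1) to 20 for F against control, 6 (without E 2, and 9 without control 1) to 18 for E against control, 4 (without control 3, and 5 without control 1) to 13 (without RE 5) for RE against control, 4 (without E 2) to 19 for RE against E, 10 (without E 2, and 11 without E 1) to 21 for E against F and 6 (without F 1) to 18 for RE against F. These were 1.38 to 7.24% of members, where 2.59 to 5.09% of all circRNAs passed.

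With a replicate block the counts were 6 for F against control, 9 for E against control and 8 for E against F, 2.07 to 3.10% of members where 2.13 to 2.28% of all circRNAs passed. Deviations of same-numbered libraries from their group means gave correlations of −0.0887 to 0.0809. With so few reads per circRNA, and no other pairs of libraries set beside them, these cannot tell whether the numbers pair libraries. RE shares fewer than 2 numbers with the others and had no block.

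With circRNAs of fewer than 60 reads as denominator, members held 15.1% in F, 14.4% in E, 13.7% in RE and 13.5% in control libraries, and with a limit of 30 reads 5.96% in control libraries. The adjusted p of the antisense class ran from 0.0279 (without E 2) to 0.230 with 1 library left out. With the 4 libraries as a term, 1 circle-making gene passed in RE against E (Khdrbs1). Of 249 alternative values for the 12 members named by contrast, 33 lost an unadjusted p under 0.05. With a median of 2 reads, most members are too shallow for any test between groups.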
